A study of Mus musculus with 11 samples.

Results

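The genes examined were 8 of red blood cells and of the factors that make them, among 18193 genes with a probe set that carries a single gene symbol. They comprised 3 embryonic globins (Hbb-y, Hbb-bh1 and Hba-x), the haem enzyme gene Alas2, and 4 genes of erythroid regulators (Gata1, Klf1, Tal1 and Lmo2). They were chosen by name, as a gauge of blood in dissected neural tissue and to see whether Lmo2 follows the globins. They are measured by 12 probe sets, and where a gene has several, the probe set of highest mean over the 11 arrays stands for it.

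The arrays are Affymetrix whole-genome mouse arrays of neural tissue from C57BL/6 embryos, and the study set the open neuroepithelium, before closure, against the closed neural tube. The 4 groups were closed neural tube at embryonic day 9.5 (E9.5, 3 arrays), open neuroepithelium at E9.5 (3 arrays), closed neural tube at E8.5 (2 arrays) and open neuroepithelium at E8.5 (3 arrays). All embryos were unmanipulated and of 1 strain. All tissue kept its closely attached notochord and was freed in 2.5% pancreatin with 0.5% trypsin on ice, for 8 min at E9.5 and 5 min at E8.5, so incubation time and stage cannot be told apart. Open tissue lies caudal and closed tissue rostral to the junction, so region along the body axis and closure cannot be told apart either. Embryos, 111 in all, could be pooled within a litter, and 50 ng of RNA per sample went through 2 rounds of amplification. The authors removed 1 closed E8.5 array of the 12 hybridized, and the small number of arrays limits the precision. The regions were not level in neural markers. Of 15 such markers tested, closed tissue had more signal for 10 over both stages and less for 0, by limma (66.7% called, against 11.9% of all genes tested). Sox2, a gene of neural progenitors, had a log2 signal between 10.99 and 11.63 over the 11 arrays. Closed minus open for Sox2 was 0.43 at E9.5 (limma adjusted p = 0.0117) and 0.10 at E8.5 (adjusted p = 0.850). Olig2, of ventral progenitors, was 6.99 to 8.23 in closed arrays and 3.47 to 3.77 in open arrays, where it lay under 4.30, the filter on low signal applied to a gene's mean.

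The first red cells of the mouse embryo arise in the blood islands of the yolk sac and enter the embryo once the heart beats. These primitive erythroid cells carry haemoglobins that include embryonic chains, the beta-like chains of Hbb-y and Hbb-bh1 and the zeta chain of Hba-x. Their genes are switched on by Gata1, which binds GATA sequences, by Klf1, which binds CACCC sequences, and by a complex in which Lmo2, a LIM-only protein that does not itself bind DNA, bridges Tal1, Gata1 and the adaptor Ldb1. Lmo2 is also known from endothelium and from blood stem cells.

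The sequences before the start sites of Hbb-y and Hba-x are shown because the embryonic globins moved together between the stages. No promoter window was available for Hbb-bh1. They are the 250 bases before the RefSeq start on build GRCm38.p6, read 5′ to 3′ on the strand of the gene, with matches to CACCC (or GGGTG) and GATAA (or TTATC) in capitals. Hbb-y lies at chr7:103853208-103853457 on the minus strand and Hba-x at chr11:32276350-32276599 on the plus strand.
Hbb-y: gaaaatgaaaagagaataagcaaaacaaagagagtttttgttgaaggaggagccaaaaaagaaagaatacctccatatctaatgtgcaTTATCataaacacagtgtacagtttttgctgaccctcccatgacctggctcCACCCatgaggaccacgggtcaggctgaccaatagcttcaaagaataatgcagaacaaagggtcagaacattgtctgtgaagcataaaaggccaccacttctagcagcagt
Hba-x: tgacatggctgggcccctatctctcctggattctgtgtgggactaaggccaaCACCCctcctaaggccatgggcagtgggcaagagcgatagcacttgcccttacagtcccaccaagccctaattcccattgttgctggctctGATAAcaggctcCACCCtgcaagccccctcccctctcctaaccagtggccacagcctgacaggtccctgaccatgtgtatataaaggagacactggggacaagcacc

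In Hbb-y the CACCC match spans bases 111 to 107 before the start and the GATAA match, on the opposite strand, bases 162 to 158. In Hba-x, CACCC matches span bases 198 to 194 and 95 to 91, and the GATAA match bases 107 to 103. Matches to ATAAA stand at bases 28 to 24 before the start in Hbb-y and 27 to 23 in Hba-x, the usual place of a TATA box. A second ATAAA match in Hbb-y, at bases 157 to 153, directly follows the GATAA match without overlapping it. CCAAT was found in Hbb-y, at bases 83 to 79, and these letters are not in the window of Hba-x. Such short strings are common. Of 32851 promoter windows of the same length, searched on both strands, 52.0% hold CACCC, 22.6% GATAA, 33.8% CCAAT and 37.3% ATAAA, and 10.1% hold both CACCC and GATAA. Some windows of members that did not pass the threshold between the stages or were not tested hold both too. Alas2 has 3 CACCC matches and 1 GATAA match, Klf1 has 1 of each, and 1 of the 2 windows of Tal1 has 1 of each. The other window of Tal1 has 0 of each, and Gata1 has 2 CACCC matches and 0 GATAA matches. The matches are a description of letters, and no binding was measured here.

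The embryonic globins differed by stage, and in open tissue all 3 rose. The comparisons below share arrays, so they are not independent of each other. Hbb-y, the epsilon-like beta chain and read here from probe set 1436823_x_at, had a log2 signal of 11.66, 12.13 and 10.61 in closed E9.5 arrays 1 to 3, and 12.33, 12.34 and 11.76 in open E9.5 arrays. It had 8.88 and 8.43 in closed E8.5 arrays, and 5.01, 8.20 and 7.67 in open E8.5 arrays 1 to 3. Every E9.5 array of Hbb-y lay above every E8.5 array, whereas the regions overlapped at E9.5. In open tissue alone the stages did not overlap for 21.8% of all genes tested, and in closed tissue alone for 21.2%. The share over both regions together was not counted. Open E8.5 array 1 stood far below the other arrays of its group. Open tissue averaged 12.14 ± 0.33 at E9.5 and 6.96 ± 1.71 at E8.5 (SD, n = 3 each). The difference of 5.18 (SE 0.66, a 36.3-fold change, limma adjusted p = 0.000799) was larger than the spread between replicates. Without open E8.5 array 1 it was 4.21, and it stayed past the threshold. In bulk tissue such a change may be more cells of a type or more RNA per cell, and these cannot be told apart.

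Hbb-bh1, the other embryonic beta-like chain, had 10.03, 9.84 and 8.96 in closed E9.5 arrays 1 to 3, and 10.77, 10.36 and 10.14 in open E9.5 arrays, from probe set 1437810_a_at. It had 7.28 and 8.59 in closed E8.5 arrays, and 5.72, 8.31 and 7.54 in open E8.5 arrays. The lowest E9.5 array, closed array 3, still lay above the highest E8.5 array. In open tissue Hbb-bh1 averaged 10.42 ± 0.32 at E9.5 and 7.19 ± 1.33 at E8.5 (SD, n = 3 each), a rise of 3.23 (SE 0.56, 9.41-fold, limma adjusted p = 0.00534). With open E9.5 arrays 1 and 2 left out together, the rise was 2.95 and no longer passed (adjusted p = 0.165).

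Hba-x, the embryonic alpha-like chain, has a single probe set, 1448716_at. Its log2 signal was 7.25, 8.02 and 6.91 in closed E9.5 arrays 1 to 3, and 7.94, 7.78 and 8.04 in open E9.5 arrays. It was 5.92 and 6.31 in closed E8.5 arrays, and 5.02, 5.99 and 5.67 in open E8.5 arrays. The stages were again separate, with closed E9.5 array 3 lowest at the later stage and open E8.5 array 1 lowest of all. As for Hbb-y and Hbb-bh1, the share of all genes so separated over both regions was not counted. Open tissue averaged 7.92 ± 0.13 at E9.5 and 5.56 ± 0.49 at E8.5 (SD, n = 3 each), a rise of 2.36 (SE 0.29, 5.12-fold, limma adjusted p = 0.000548).

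**Figure D1:**
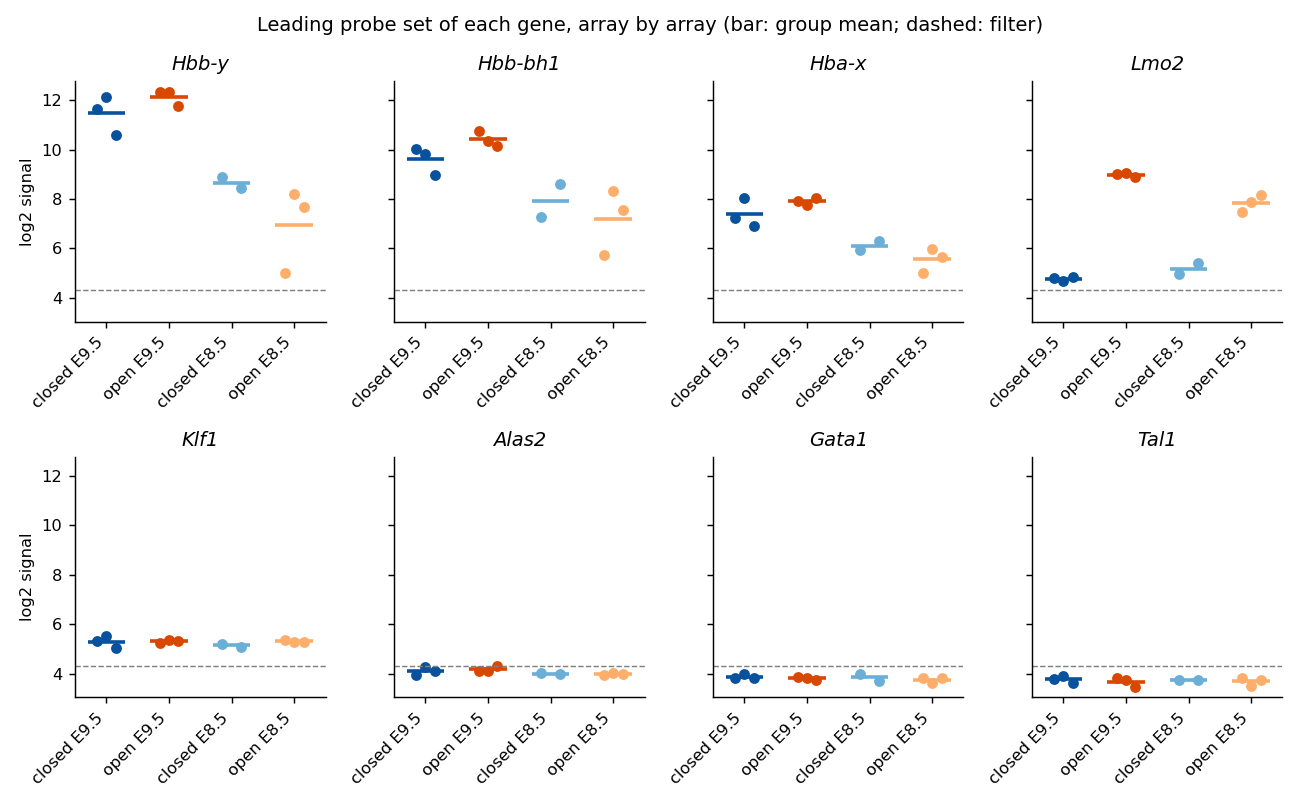
Log2 signal (y axis) of the leading probe set of each of the 8 genes, with 1 point per array, a bar at each group mean and a dashed line at the filter of 4.30. The 3 globins stand higher at E9.5 than at E8.5 in both regions, Lmo2 stands higher in open than in closed tissue at both stages, and Alas2, Gata1 and Tal1 lie around or under the filter in every group.

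In open tissue 4 of the 5 genes that passed the filter rose between the stages, the 3 globins and Lmo2, and 0 fell, where 3.61% of all 13338 genes tested rose and 5.02% were called in either direction. The median difference of the 5 was 2.36, against -0.02 over all genes tested. The filter took the mean over all arrays, so a gene could pass it through its high groups alone, and the other 3 genes did not pass.

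In closed tissue the globins differed in the same direction, with smaller values that missed the threshold. Of the 5 genes, 0 rose and 0 fell, where 2.42% of all genes tested were called. Hbb-y averaged 11.47 ± 0.78 at E9.5 (SD, n = 3) and 8.65 ± 0.32 at E8.5 (SD, n = 2), a difference of 2.81 (SE 0.74, 95% interval 1.19 to 4.43, limma adjusted p = 0.0876). Hba-x averaged 7.39 ± 0.57 at E9.5 and 6.11 ± 0.27 at E8.5, a difference of 1.28 (SE 0.32, adjusted p = 0.0697). Hbb-bh1 averaged 9.61 ± 0.57 at E9.5 and 7.94 ± 0.93 at E8.5, a difference of 1.67 (SE 0.63, adjusted p = 0.311). The closed groups did not overlap for any of the 3 globins, as for 21.2% of all genes tested. Before adjustment, 3 of the 5 genes, the globins, had p under 0.05, against 10.2% of all genes tested. Without open E8.5 array 1, which enters only through the shared spread, Hbb-y passed at 2.81 (adjusted p = 0.00348) and Hba-x at 1.28 (adjusted p = 0.0499), and without closed E9.5 array 3 Hba-x passed at 1.52 (adjusted p = 0.0426).

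Whether the stage change differed between the regions was tested as the interaction, the closed change minus the open one. It was -2.37 (SE 0.99) for Hbb-y, -1.08 (SE 0.43) for Hba-x and -1.56 (SE 0.84) for Hbb-bh1, with limma adjusted p of 0.456, 0.421 and 0.613. These misses do not show that the regions changed alike, since the 95% interval of the interaction was -4.55 to -0.19 for Hbb-y, -2.01 to -0.14 for Hba-x and -3.41 to 0.29 for Hbb-bh1. Without open E8.5 array 1 the interaction was -1.40 for Hbb-y (adjusted p = 0.524), -0.81 for Hba-x (adjusted p = 0.715) and -0.82 for Hbb-bh1 (adjusted p = 0.845). With the replicate block, which keeps that array, the interaction of Hbb-bh1 passed, at -1.74 (adjusted p = 0.0116), where 3.39% of all genes were called.

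The globins were not told apart between the regions in the fit of 4 group means. At E9.5, closed minus open was -0.68 for Hbb-y (SE 0.66, 95% interval -2.13 to 0.77, limma adjusted p = 0.657), -0.52 for Hba-x (SE 0.29, adjusted p = 0.372) and -0.81 for Hbb-bh1 (SE 0.56, adjusted p = 0.498). All 3 were lower in closed tissue by the mean, and for Hbb-bh1 the groups did not overlap, as for 22.5% of all genes tested. At E8.5 the signs were the other way, 1.69 for Hbb-y (SE 0.74, 95% interval 0.07 to 3.32, adjusted p = 0.302), 0.55 for Hba-x (SE 0.32, adjusted p = 0.531) and 0.75 for Hbb-bh1 (SE 0.63, adjusted p = 0.771). For Hbb-y the E8.5 groups did not overlap, as for 27.5% of all genes tested. Over both stages the differences were 0.51 (SE 0.50), 0.01 (SE 0.21) and -0.03 (SE 0.42) for Hbb-y, Hba-x and Hbb-bh1, with adjusted p of 0.718, 0.987 and 0.985.

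Arrays of like number were taken as pairs, though the check on the data did not settle numbers 1 and 2 at E9.5. The block by number changed several of these calls. At E8.5, over 2 pairs, closed minus open with the block was 2.05 for Hbb-y (adjusted p = 0.0417) and 0.92 for Hbb-bh1 (adjusted p = 0.0318), where 9.99% of all genes were called. At E9.5, over 3 pairs, it was -0.81 for Hbb-bh1 (adjusted p = 0.0150), where 16.7% of all genes were called. Without open E8.5 array 1, the E8.5 difference in the fit without a block was 0.72 for Hbb-y (adjusted p = 0.619), 0.28 for Hba-x (adjusted p = 0.940) and 0.01 for Hbb-bh1 (adjusted p = 0.998), so the E8.5 values of the globins rest largely on that array.

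**Figure D2:**
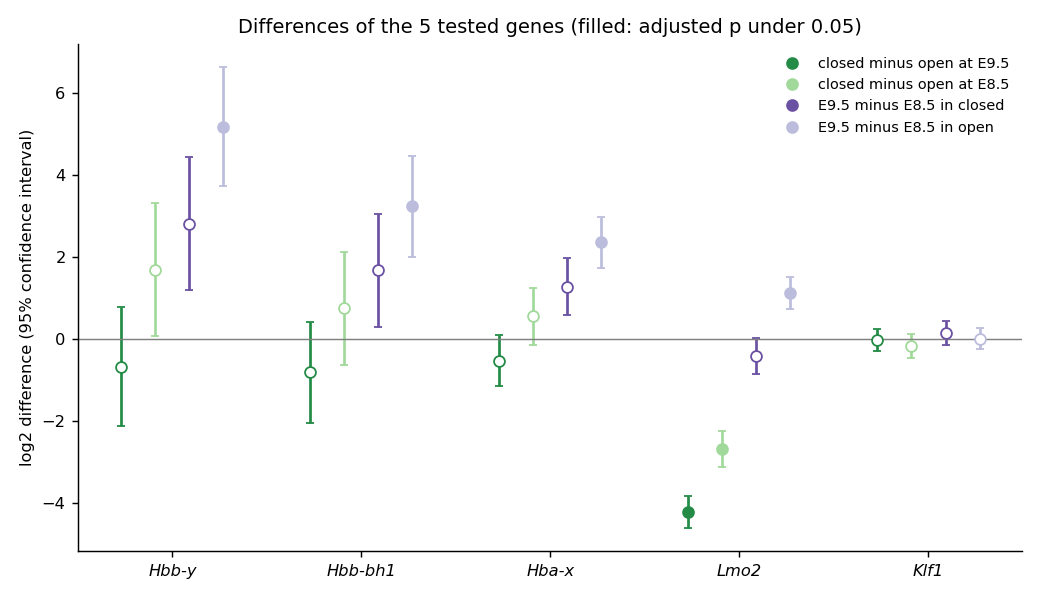
Log2 differences (y axis) with 95% confidence intervals for the 5 genes that passed the filter, in closed minus open at E9.5 and at E8.5 and in E9.5 minus E8.5 in closed and in open tissue. Filled points have a limma adjusted p under 0.05. The 3 globins are filled only for E9.5 minus E8.5 in open tissue, Lmo2 is filled for both region differences and for the open stage difference, and Klf1 is filled nowhere.

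The other probe sets of the globins followed the leading ones. For Hbb-y, probe set 1436717_x_at averaged 11.37 ± 0.77 in closed E9.5, 12.03 ± 0.32 in open E9.5, 8.63 ± 0.27 in closed E8.5 and 6.91 ± 1.46 in open E8.5 tissue. Probe set 1450621_a_at of Hbb-y averaged 8.24 ± 0.78 in closed E9.5, 9.0 ± 0.11 in open E9.5, 5.64 ± 0.41 in closed E8.5 and 5.25 ± 0.36 in open E8.5 tissue. Both put the stages apart as the leading set did, and 1450621_a_at put the E8.5 regions closer together, at 0.39 against 1.69 for the leading set. For Hbb-bh1, probe set 1437990_x_at differed by 3.37 and 1450736_a_at by 3.19 between the stages in open tissue, against 3.23 for the leading set. The ending _x_at marks sets with probes that can match other transcripts, and the beta-like globins are close copies of each other, so signal may be shared between Hbb-y and Hbb-bh1.

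**Figure D3:**
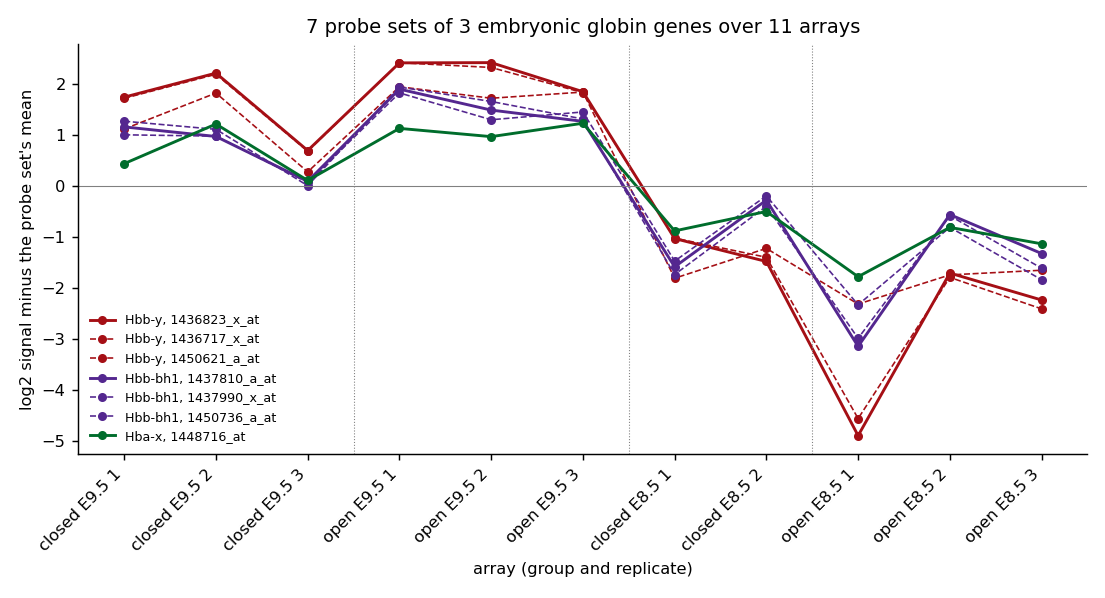
Log2 signal of the 7 globin probe sets minus each set's own mean over 11 arrays (y axis), array by array (x axis), with solid lines for leading sets and dashed lines for the others. All 7 sets are higher in the E9.5 arrays than in the E8.5 arrays, with closed E9.5 array 3 lowest at its stage, and open E8.5 array 1 is the lowest of all for each.

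The globins also varied together between arrays of the same group. Open E8.5 array 1 deviated from its group mean by -1.95 for Hbb-y, -1.47 for Hbb-bh1 and -0.54 for Hba-x. Closed E9.5 array 3 deviated by -0.86, -0.65 and -0.48 for the same genes. Over the 11 deviations from the group means, the correlation was 0.83 between Hbb-y and Hbb-bh1, 0.76 between Hbb-y and Hba-x and 0.76 between Hba-x and Hbb-bh1. These arrays share their library and labelling across genes, so the correlations are a description.

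RNA quality differed most in open E9.5 arrays 1 and 2. The 3′ minus 5′ signal of the control genes, which is higher where amplified RNA is shorter, was 1.72, 1.44 and 1.20 (log2) in closed E9.5 arrays 1 to 3, and 2.20, 2.48 and 1.14 in open E9.5 arrays. It was 1.82 and 1.18 in closed E8.5 arrays, and 1.32, 1.15 and 1.30 in open E8.5 arrays. With it as a covariate, the open stage rise was 4.86 for Hbb-y (limma adjusted p = 0.00111), and within groups its correlation was 0.20 with Hbb-y, -0.22 with Hba-x and -0.02 with Hbb-bh1.

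The adult-type globin that could be tested, Hba-a2, had a log2 signal of 4.81 to 5.75 over the 11 arrays and showed no such stage difference. How well its probe set reads the gene was not tested. Of 10 further globin genes listed, 3, all adult-type, had a probe set with a single symbol. The others had none, and probe sets with several symbols were not used, so whether the array reads these genes was not examined. Hba-a1 and Hbb-b2 had means of 3.67 and 3.30, under the filter, where a change could be missed. Of these 3 measured genes, 1 passed the filter, Hba-a2, and it passed in 0 of the limma comparisons of stage or region, also before adjustment. The summed signal of the 3, on the linear scale, was 51 to 77 in closed E9.5, 55 to 75 in open E9.5, 58 to 60 in closed E8.5 and 60 to 67 in open E8.5 arrays.

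Alas2 encodes the erythroid form of the first enzyme of haem synthesis. Its log2 signal was 3.92, 4.28 and 4.12 in closed E9.5 arrays 1 to 3, and 4.11, 4.10 and 4.31 in open E9.5 arrays. It was 4.01 and 3.96 in closed E8.5 arrays, and 3.93, 4.0 and 3.96 in open E8.5 arrays. In open tissue the stages did not overlap, as for 21.8% of all genes tested, and all other pairs of groups compared overlapped. The mean of Alas2 lay under the filter, so it was left out of the fit of tested genes. In a fit of all 18193 genes with no filter, the open stage difference of Alas2 was 0.21 (limma adjusted p = 0.396). A change of Alas2 was not detectable at this signal level.

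Gata1, the zinc-finger activator of erythroid genes, lay between 3.81 and 3.99 in closed E9.5 arrays, 3.74 and 3.85 in open E9.5 arrays, 3.71 and 3.98 in closed E8.5 arrays, and 3.63 and 3.81 in open E8.5 arrays. Tal1, a basic helix-loop-helix factor of blood and endothelial specification, lay between 3.63 and 3.91 in closed E9.5 arrays, 3.47 and 3.81 in open E9.5 arrays, 3.73 and 3.75 in closed E8.5 arrays, and 3.51 and 3.82 in open E8.5 arrays. All values of Gata1 and Tal1 were under the filter of 4.30, the 40th percentile of all probe sets, and their groups overlapped throughout. With no filter, the region and stage differences of Gata1 were between 0.03 and 0.09 and those of Tal1 between -0.02 and 0.10, and 0 passed.

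Klf1, the activator that binds the CACCC boxes of beta-like globin genes, passed the filter and was close to level. Its log2 signal was 5.31, 5.51 and 5.04 in closed E9.5 arrays 1 to 3, and 5.25, 5.37 and 5.31 in open E9.5 arrays. It was 5.18 and 5.09 in closed E8.5 arrays, and 5.36, 5.29 and 5.26 in open E8.5 arrays. In open tissue the stages overlapped and the difference was 0.01 (SE 0.12, 95% interval -0.25 to 0.27, limma adjusted p = 0.972). In closed tissue Klf1 differed by 0.15 between the stages (adjusted p = 0.917), and closed minus open was -0.03 at E9.5 (adjusted p = 0.939) and -0.17 at E8.5 (adjusted p = 0.754). Both closed E8.5 arrays of Klf1 lay just under the 3 open ones, as groups did not overlap there for 27.5% of all genes tested, and the other groups overlapped.

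Lmo2 was the 1 regulator that differed, and it differed by region. Its log2 signal was 4.79, 4.67 and 4.85 in closed E9.5 arrays 1 to 3, and 9.02, 9.05 and 8.88 in open E9.5 arrays, from probe set 1454086_a_at. It was 4.95 and 5.41 in closed E8.5 arrays, and 7.48, 7.90 and 8.18 in open E8.5 arrays. Every open array lay above every closed array by over 2 log2 units. At E9.5 Lmo2 averaged 4.77 ± 0.09 in closed and 8.98 ± 0.09 in open tissue (SD, n = 3 each), a difference of -4.22 (SE 0.18, 18.6-fold lower in closed tissue, limma adjusted p = 1.04e-07). At E8.5 it averaged 5.18 ± 0.33 in closed (SD, n = 2) and 7.86 ± 0.35 in open tissue (SD, n = 3), a difference of -2.68 (SE 0.20, 6.39-fold lower, adjusted p = 4.85e-06). Over both stages the difference was -3.45 (SE 0.13, adjusted p = 9.92e-09).

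Lmo2 was the 1 gene of 5 that fell in closed relative to open tissue, and 0 rose, in each of these comparisons in limma. Before adjustment 1 further gene, Hbb-y, was higher at E8.5, where 14.9% of all genes tested had p under 0.05. Of all genes tested, 5.79% fell at E9.5, 3.38% at E8.5 and 6.82% over both stages, and 8.54%, 7.17% and 11.9% were called in either direction. The region difference of Lmo2 kept its direction and its call under every alternative tried, between -4.28 and -4.09 at E9.5 and between -2.91 and -2.44 at E8.5.

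Lmo2 also rose between the stages in open tissue, by 1.13 (SE 0.18, 2.19-fold, limma adjusted p = 0.00314), and the open groups did not overlap (21.8% of all genes tested). In closed tissue its stage difference was -0.41 (SE 0.20, 95% interval -0.85 to 0.02, adjusted p = 0.542), although the groups did not overlap (21.2% of all genes tested), with both E8.5 arrays above the 3 E9.5 arrays. The interaction was -1.54 (SE 0.27, adjusted p = 0.0175), and Lmo2 was the 1 gene of 5 called there, where 1.25% of all genes tested were called and 0.952% were lower. The interaction missed the threshold without closed E8.5 array 2 (-1.31, adjusted p = 0.0817), without open E9.5 array 1 (-1.52, adjusted p = 0.0511), without closed E9.5 array 2 (-1.49, adjusted p = 0.0547) and without open E9.5 arrays 1 and 2 together (-1.43, adjusted p = 0.170). Without those last 2 arrays, the open stage rise of Lmo2 was 1.02 and missed it too (adjusted p = 0.125).

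Set against the globins, Lmo2 had another order of groups. Its means ran highest in open E9.5, then open E8.5, then closed E8.5 and closed E9.5, with the closed groups not told apart by the fit. Hbb-y, Hbb-bh1 and Hba-x ran highest in open E9.5, then closed E9.5, closed E8.5 and open E8.5, with the regions of a stage not told apart by the fit without a block. The globin mean of closed E9.5 arrays was 9.64, 9.999 and 8.83, above all open E8.5 arrays at 5.25, 7.50 and 6.96, while Lmo2 stood under 5 in those closed arrays and over 7 in the open E8.5 arrays.

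The difference between Lmo2 and each globin was tested directly with an exact permutation of arrays, two-sided, over 6 comparisons, chosen after the data were seen. For region, permuted within stages, the change of Lmo2 minus that of the globin was -3.95 for Hbb-y, -3.46 for Hba-x and -3.41 for Hbb-bh1. For stage, permuted within regions, Lmo2 changed by 0.36 on average, against 4.0 for Hbb-y, 1.82 for Hba-x and 2.45 for Hbb-bh1. The differences were -3.64, -1.46 and -2.10. That 0.36 averages a change of 1.13 in open and of -0.41 in closed tissue. The globins also changed by unlike amounts among themselves. The stage comparisons therefore cannot tell a gene that follows the globins by less from one that does not follow them. All 6 comparisons share Lmo2 and the same arrays. Each of the 6 gave an exact permutation p of 0.005, the smallest that the 200 permutations can give, and an adjusted p of 0.005. The permutations did not keep the pairs by replicate number, so these p-values do not allow for that pairing.

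**Figure D4:**
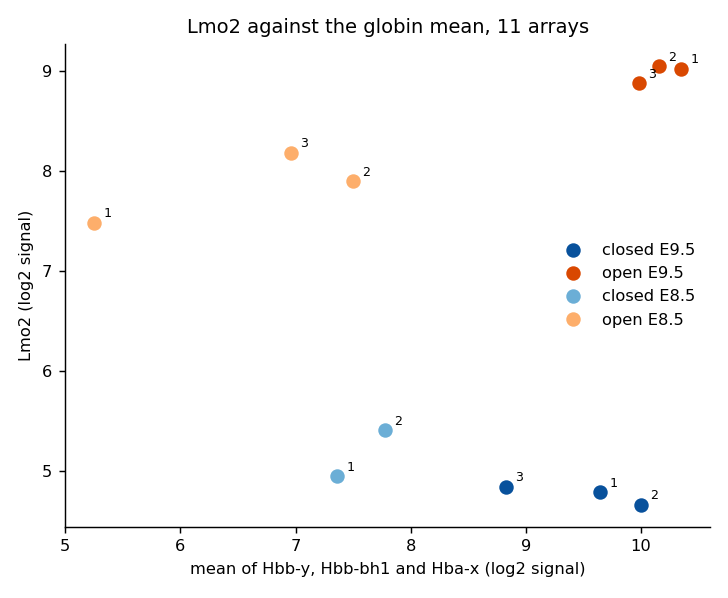
Log2 signal of Lmo2 (y axis) against the mean log2 signal of Hbb-y, Hbb-bh1 and Hba-x (x axis), with 1 point per array, coloured by group and numbered by replicate. The arrays fall into 4 clusters. Closed E9.5 arrays have a globin mean of 8.83 to 9.999 with Lmo2 between 4.67 and 4.85, and open E8.5 arrays have a globin mean of 5.25 to 7.50 with Lmo2 between 7.48 and 8.18.

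Because the arrays form clusters by group, a correlation over all arrays is not given. Within groups, over the 11 deviations from the group means, the Pearson r of Lmo2 was 0.49 with Hbb-y (exact permutation p = 0.558), 0.31 with Hba-x (exact permutation p = 0.514) and 0.69 with Hbb-bh1 (exact permutation p = 0.222). Spearman's rho was 0.22, 0.27 and 0.58 (exact permutation p = 0.657, 0.523 and 0.271). Adjusted over the 7 genes set against Lmo2, the 3 values of p were each 0.651 for r. Deviations of Lmo2 ran from -0.37 to 0.33 in E8.5 arrays and only from -0.11 to 0.08 in E9.5 arrays. The E8.5 groups hold 2 and 3 arrays, which allow few orders. These misses therefore do not show that Lmo2 and the globins vary apart. Without the 2 arrays farthest from the median, r was 0.05 with Hbb-y, 0.24 with Hba-x and 0.58 with Hbb-bh1. Klf1 had r = -0.44 with Lmo2 (exact permutation p = 0.0208, adjusted 0.146) and rho = -0.65 (exact permutation p = 0.0602).

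With the globin mean as a covariate, an alternative also added after the data were seen, Lmo2 stayed lower in closed tissue, by -4.09 at E9.5 (limma adjusted p = 1.38e-06) and -2.86 at E8.5 (adjusted p = 2.61e-05). The globins were not told apart between the regions without a block, so this covariate could take away little of a region difference. With the covariate, the open stage difference of Lmo2 was 0.46 (SE 0.41, adjusted p = 0.999) and the interaction -1.23 (adjusted p = 0.238). The SE of that stage difference was 0.41 with the covariate and 0.18 without it.

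The genes most like Lmo2 over the 11 arrays, among 13333 tested genes outside the list, were Cdkn1a (r = 0.99), Ets2 (r = 0.99), Cyp26a1 (r = 0.99), Dact1 (r = 0.98), Enc1 (r = 0.98) and AW551984 (r = 0.97). Those most like the mean of the 3 globins were Igdcc3 (r = 0.95), Notch3 (r = 0.94), Rad54l (r = 0.94), Cdk2ap1 (r = 0.94), Pea15a (r = 0.93) and Tmem170b (r = 0.93). The arrays share 4 group means, which set most of these values. The 2 sets have no gene in common. For deviations from the group means, the leading genes were Golga4 (r = 0.95), Rnaseh2b (r = 0.94), Eif2ak3 (r = 0.93), Rnf122 (r = 0.92), Rbak (r = 0.92) and Zfp597 (r = 0.92) for Lmo2. They were Bmp7 (r = 0.94), Scaf4 (r = 0.92), Tmem189 (r = 0.92), Cbll1 (r = 0.92), Mrpl19 (r = 0.91) and Cdc7 (r = 0.91) for the globin mean. Each set is the top of 13333 values over 11 arrays.

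Among other genes of the red cell, those of haem synthesis gave no call and those of the membrane and cytosol gave calls in both directions. Of 11 genes of haem synthesis and iron uptake, all of them tested, 0 rose and 0 fell between the stages in open tissue, with a median of -0.04. Before adjustment 2 were higher and 1 was lower with p under 0.05, against 17.5% of all genes tested. By region over both stages 0 passed in limma, also before adjustment, with a median of -0.09. Of 20 red cell membrane and cytosol genes measured, 13 were tested and 7 had a mean under the filter. Between the stages in open tissue 1 of the 13 rose and 1 fell (15.4%, against 5.02% of all genes tested), with a median of 0.08. Gypc, the glycophorin C gene, rose by 1.20 (SE 0.16, limma adjusted p = 0.00109). Car2, another carbonic anhydrase, fell by 0.59 (adjusted p = 0.0262), a call lost in several alternatives (adjusted p up to 0.441). In closed tissue Car2 was the 1 gene of 13 called, lower by -1.37 (adjusted p = 0.000359), where 2.42% of all genes tested were called.

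Among the 7 under the filter, Slc4a1, the band 3 anion exchanger of the red cell membrane, was chosen to be named after its values were seen. The p-values given for it are therefore a description. Its log2 signal was 4.01, 4.10 and 3.91 in closed E9.5 arrays 1 to 3, and 5.37, 4.72 and 4.67 in open E9.5 arrays. It was 3.85 and 3.71 in closed E8.5 arrays, and 3.64, 3.66 and 3.59 in open E8.5 arrays. The 4 group means of Slc4a1 stood in the order of the globins, and only the open E9.5 arrays lay above the filter of 4.30. Among the other genes of the 7, Rhag and Hemgn had the same order of means, at 3.14 and 3.60 in open E9.5 tissue. Epb42, Icam4 and Kel were instead lowest in open E9.5 tissue (3.90, 4.07 and 3.42), and Car1 was highest in closed E8.5 tissue (3.70). With no filter, Slc4a1 rose between the stages in open tissue by 1.29 (SE 0.15, 2.44-fold, limma adjusted p = 0.000393, where 3.68% of 18193 genes were called). It was lower in closed than in open tissue at E9.5 by -0.91 (SE 0.15, adjusted p = 0.00240, where 6.18% were called), and differed by 0.23 between the stages in closed tissue (adjusted p = 0.938).

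By region, 1 of these 13 red cell genes was higher in closed tissue over both stages and 2 were lower (23.1%, against 11.9% of all genes tested), with a median of -0.03. Dmtn, which encodes the membrane skeleton protein dematin, averaged 4.92 in closed E9.5, 7.23 in open E9.5, 4.65 in closed E8.5 and 6.34 in open E8.5 tissue, and was lower in closed tissue by -2.0 (limma adjusted p = 2.28e-05), and by -0.73 (adjusted p = 0.000169) with the probe sets of the gene averaged. Bpgm, bisphosphoglycerate mutase, was lower by -0.44 (adjusted p = 0.00241), and Car2 was higher by 0.50 (adjusted p = 0.00500).

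The partners of Lmo2 were read from 19 genes of the erythroid and stem cell factor complex, of which 16 were tested. Over both stages 3 were higher in closed tissue and 1 was lower (25%, against 11.9% of all genes tested). The median was 0.01, against 0.00 over all genes tested. The genes higher in closed tissue were Sox6, a repressor of embryonic globin genes (1.00, limma adjusted p = 0.000399), Lmo1, another LIM-only gene (0.45, adjusted p = 0.00227), and Myb. The gene lower in closed tissue was Ssbp2, whose product stabilizes Ldb1 complexes (-0.58, adjusted p = 0.00237). Lmo1 averaged 5.11 in closed E9.5, 4.90 in open E9.5, 5.84 in closed E8.5 and 5.15 in open E8.5 tissue, opposite in sign to Lmo2 by region. Between the stages in open tissue 0 of the 16 passed in limma, and before adjustment 2 were higher and 2 were lower, against 17.5% of all genes tested.

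Markers of other blood cells gave no call. Of 14 measured, 8 were tested and 0 were called by region over both stages or by stage in open tissue in limma, and Ptprc, Cx3cr1, Itgam, Pf4, Cd34 and Tyrobp were under the filter. Before adjustment 1 of the 8 had p under 0.05 by region and 0 by stage, against 20.6% and 17.5% of all genes tested. Their summed linear signal was 452 to 495 in closed E9.5, 434 to 482 in open E9.5, 450 to 506 in closed E8.5 and 488 to 550 in open E8.5 arrays, which does not follow the globins by stage.

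Endothelial markers were mixed in direction. Of 26 measured, 17 were tested, and over both stages 4 were higher and 3 were lower in closed tissue. That was 41.2% called, against 11.9% of all genes tested, with a median of 0.04. Those lower in closed tissue, as Lmo2 was, included Etv2, an activator of blood and endothelial genes (-1.01, limma adjusted p = 2.01e-05), and Aplnr, the apelin receptor (-1.40, adjusted p = 7.55e-05). Those higher included Sox18 (0.65, adjusted p = 8.69e-05) and Ramp2 (0.70, adjusted p = 0.00823), both of vascular development. Etv2 averaged 6.39 in closed E9.5, 7.49 in open E9.5, 6.26 in closed E8.5 and 7.19 in open E8.5 tissue. The defining genes Tek, Tie1, Cdh5, Pecam1, Emcn, Fli1, Sox17, Robo4 and Icam2 were under the filter. The summed linear signal of the list was 2208 to 2551 in closed E9.5, 2299 to 3163 in open E9.5, 1617 to 1774 in closed E8.5 and 3083 to 3331 in open E8.5 arrays. At E8.5 this sum was lower in closed tissue, and at E9.5 the regions overlapped. Without Aplnr the other 25 genes summed to 1132 to 1264 in closed E9.5, 1108 to 1190 in open E9.5, 1258 to 1403 in closed E8.5 and 1320 to 1334 in open E8.5 arrays, so the regions overlapped at both stages. The list's part in the Lmo2 difference was not tested.

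Caudal progenitor and tail bud genes moved with Lmo2 by region. Of 20 measured and tested, 0 were higher and 16 were lower in closed tissue over both stages (80%, against 11.9% of all genes tested). Their median was -2.24. Evx1, a homeobox gene of the caudal embryo, was lower by -4.48 (limma adjusted p = 6.15e-09), and Hes7, the somite clock repressor, by -3.49 (adjusted p = 5.02e-09). The summed linear signal was 6065 to 6433 in closed E9.5, 24831 to 29099 in open E9.5, 4308 to 4613 in closed E8.5 and 21506 to 26037 in open E8.5 arrays. Open and closed arrays did not overlap in this sum, and they did not for Lmo2, and the part of caudal tissue in the Lmo2 difference was not tested. Yolk sac endoderm genes gave 0 higher and 2 lower of 9 tested over both stages (22.2%, against 11.9% of all genes tested). The 2 were Rbp4 at -0.68 and Apoa2 at -0.34, each lost in some alternatives. The summed signal of this list was 393 to 394 in closed E9.5, 388 to 435 in open E9.5, 409 to 430 in closed E8.5 and 479 to 487 in open E8.5 arrays. That sum was highest in open E8.5 arrays, where the globins were lowest. The summed signal of 12 somite genes was 314 to 322 in closed E9.5, 300 to 324 in open E9.5 and 300 to 314 in open E8.5 arrays. In the closed E8.5 arrays it was 348 and 733, with the higher value in array 2. The part of somite tissue in the Lmo2 and globin values of that array was not tested.

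**Figure D5:**
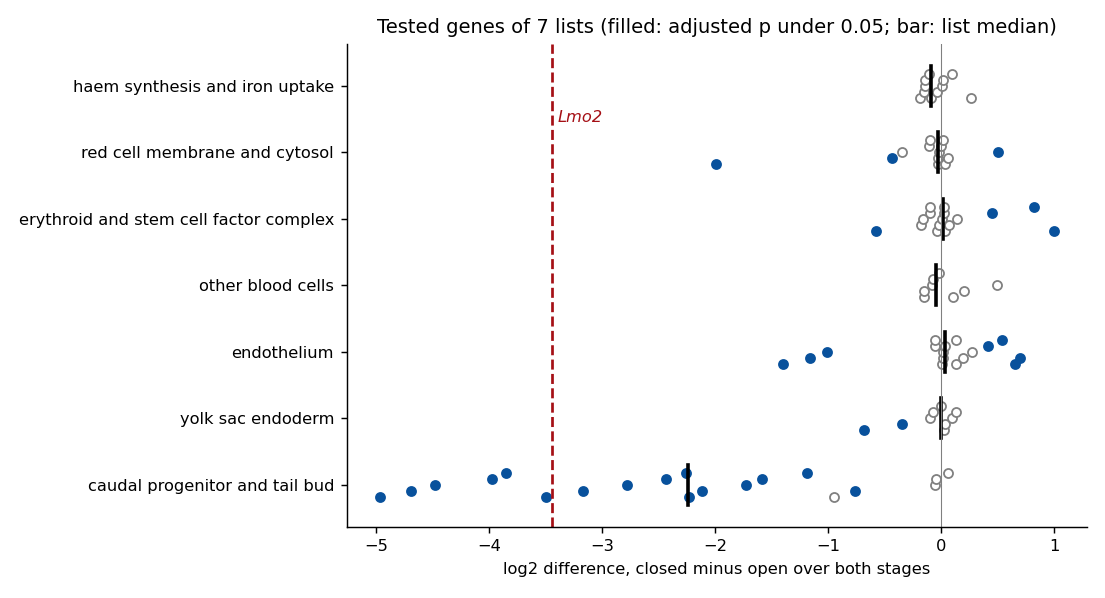
Log2 difference of closed minus open tissue over both stages (x axis) for the tested genes of 7 lists (y axis), with filled points for a limma adjusted p under 0.05, a bar at each list's median and a dashed line at the value of Lmo2, -3.45. The haem, red cell, factor complex, other blood, endothelial and yolk sac lists have medians between -0.09 and 0.04, and the caudal list has a median of -2.24 with 16 of 20 genes called lower.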

How the data were processed

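The values are the deposited log2 signal of 45101 probe sets on 11 arrays, from 2.37 to 14.72. The submitters' processing notes name MAS5 without version or role. The near-equal array distributions are not those of plain MAS5 signal, so the background correction and normalization behind the authors' log2 values are not known. They were used as deposited. No array column was left unmapped.

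Gene names came from GEO's platform annotation: 34945 probe sets had 1 symbol, 932 had several, 9160 had none and 64 were controls, and only the first kind was used. Each of 18193 genes took its probe set of highest mean. Tests covered the 13338 genes whose mean reached 4.30, the 40th percentile over probe sets, among them 5 of the 8 members. A single linear model of the 4 group means was fitted in R 4.3.3 with limma 3.58.1 (moderated variances with an intensity trend), with 7 residual and 4.4 prior degrees of freedom. Benjamini-Hochberg adjusted p under 0.05 over all tested genes was the threshold. A fold is 2 to the power of the log2 difference. The script was tested on simulated data. The labels name the arrays of a group biological replicates without saying whether they come from separate litters, so the p-values measure the spread between these arrays.

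Labels give the regions shared replicate numbers. Deviations from group means of same-numbered closed and open arrays correlated at 0.31, 0.34 and 0.69 at E9.5 and 0.58 and 0.70 at E8.5. Some arrays of unlike number did so too, closed 1 with open 2 (0.32) and closed 2 with open 1 (0.26) at E9.5. At E8.5 closed 1 with open 3 gave 0.31, and all other unlike pairs were negative. The check therefore did not settle the pairing of numbers 1 and 2 at E9.5. Deviations of the 2 closed E8.5 arrays mirror each other, so the 2 E8.5 values are not separate evidence. The numbers were taken as pairs, and values with the number as a block are given where they change a call. That pairing comes from these data and not from the labels. Across stages, same-numbered arrays correlated between -0.53 and 0.30, so they were not taken as pairs.

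Lmo2 was set against the other members by deviations from group means, with an exact permutation within groups (432 orders, two-sided) in Python 3.11.15. Neither this permutation nor that of Lmo2 minus each globin kept same-numbered arrays together. The members and 11 further gene lists were chosen with earlier results of these data known. Named genes are the members, the 2 genes of smallest p in each direction of a list (some are printed), and the 6 most like Lmo2 and the globin mean; Myb, Slc4a1, Sox2, Olig2 and genes named as under the filter were added after their values were seen. Alternatives were quantile normalization, median centring, other filters, the mean of all probe sets, other eBayes settings, array weights, the replicate block, the 3′ signal as covariate, each array left out, and only the groups compared. Promoter windows are RefSeq's, on GRCm38.p6, and were available for 6 of the 8 members, not for Hbb-bh1 and Lmo2.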

Additional observations from a re-analysis of the deposited data

Results flagged for a closer look

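The difference of Lmo2 between closed and open tissue itself differed between the stages. Closed minus open was -4.22 at E9.5 and -2.68 at E8.5 on the log2 scale, and the test of their difference, the interaction of region and stage, gave -1.54 (SE 0.27, limma adjusted p = 0.0175). At E9.5 Lmo2 averaged 4.77 in closed and 8.98 in open tissue, and at E8.5 it averaged 5.18 in closed and 7.86 in open tissue. Groups of 2 or 3 arrays are too small for a test of single outlying arrays.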

How the results depend on the processing

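The count of members past the threshold stayed at 1 for region over both stages in the alternatives tried. The other counts changed as follows, and the cause was not tested. With the replicate block, 3 members passed for region at E8.5, 2 for region at E9.5, 1 for stage in closed tissue (Hba-x, 1.32, adjusted p = 0.0414, where numbers do not pair the arrays) and 2 for the interaction. For stage in closed tissue, where 0 passed, 1 passed with a gene's probe sets averaged and with only the groups compared, and 2 with the 3′ signal as a covariate. Hbb-y then differed by 2.72 (adjusted p = 0.0328), 2.81 (adjusted p = 0.0160) and 2.84 (adjusted p = 0.0240). With open E9.5 arrays 1 and 2 left out, 2 members passed for stage in open tissue and 0 for the interaction. Leaving out 1 array at a time gave counts of 0 to 2 for stage in closed tissue and 0 to 1 for the interaction, and otherwise kept them, at 4 for stage in open tissue and 1 for each region comparison.

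Differences near 0 changed sign without passing. Klf1 by region at E9.5 was 0.081 with array weights, 0.015 with the 3′ signal and 0.00024 with the globin mean as covariates, and -0.14 to 0.098 without 1 array. Klf1 by stage in open tissue was -0.022 with array weights, -0.046 with the 3′ signal and -0.13 with the globin mean as covariates, and -0.018 to 0.041 without 1 array. Hbb-bh1 over both stages was 0.0061 with quantile normalization, 0.055 with the replicate block, 0.11 without open E9.5 arrays 1 and 2, and -0.40 to 0.29 without 1 array. Hba-x over both stages was -0.011 with the 3′ signal, -0.046 without open E9.5 arrays 1 and 2, and -0.14 to 0.13 without 1 array. A group left with 1 array was taken to vary as the others do. The within-group correlations of Lmo2 with the globins did not change their side of the threshold in the alternatives tried. Alas2, Gata1 and Tal1 lay near the low end of signal, which limits what could be detected for them.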
